A study of Mus musculus with 32 samples.

Results

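Expression of 10 circadian clock genes, Arntl, Clock, Npas2, Per1, Per2, Per3, Cry1, Nr1d1, Nr1d2 and Dbp, was followed in 2 tissues of male mice, the epididymal white fat pad (eWAT) and the liver. The genes were chosen by name, as members of the molecular clock, and were found by symbol among the 47643 Ensembl gene IDs of the count file. All 10 had counts above the filter on low counts in both tissues, so that no member was left out. The mice were males of the strain labelled C57BL/6 (C57BL/6J in the study's methods), 10 weeks old, that received corticosterone (cort), the main glucocorticoid hormone of rodents, or vehicle (veh, dilute ethanol) in the drinking water for 7 days. During these days they ate a normal protein diet (NPD, 20% of kcal from protein) or a high protein diet (HPD, 60% of kcal from protein), which carried less carbohydrate so that calories matched. RNA was measured in 32 libraries, 4 for each combination of treatment and diet in each tissue. Cort in the water was taken up as the mice drank, in a light and dark cycle, and the mice were fasted for some hours before tissue collection. The clock time of collection is not given in the sources used here, and each mouse gave a single time point. A difference in the phase of a rhythm and a difference in its size therefore cannot be told apart in these data.

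The clock is a feedback loop of transcription that runs through the day in nearly every cell. CLOCK, or its relative NPAS2, pairs with BMAL1 (the product of Arntl) and binds E-box sequences in the Per, Cry, Nr1d1, Nr1d2 and Dbp genes, the PER and CRY proteins then repress this pair, and REV-ERBα and REV-ERBβ (from Nr1d1 and Nr1d2) repress Arntl, so that Arntl is high at the hours when Dbp and Nr1d1 are low. In liver and fat the clock is set by feeding and by the daily rise of glucocorticoids, and Per1 and Per2 are known direct targets of the glucocorticoid receptor.

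Start regions were read from RefSeq (GRCm38.p6), as windows of 250 bases before to 50 bases after each listed start. They were available for 9 of the 10 members, all but Per2, in 13 windows, and were searched on both strands for letters known from clock gene promoters. The E-box CACGTG was present in 2 members, Per1 and Cry1, and in 7.15% of all 32851 windows. The E'-box CACGTT was present in Cry1 and Nr1d1, and in 4.68% of all windows. The D-box TTATGTAA, which DBP and its relatives bind, was present in Per3, in 2 copies, and in 0.938% of all windows. The ROR element core TAGGTCA was present in Arntl, 30 bases after a listed start, and in 2.61% of all windows. Neither the second D-box form TTACGTAA (0.119% of all windows) nor the core of the glucocorticoid element ACANNNTGT (6.85% of all windows) was matched in these windows. The stretches that hold the matches before the start are shown 5′ to 3′ on the strand of the gene, with the matches in capitals (AACGTG is CACGTT read on the other strand), because these 4 are the members with a match there, and Per1 and Per3 among them passed the test in the results below.
Per1, E-box, chr11:69098759-69098808 (+): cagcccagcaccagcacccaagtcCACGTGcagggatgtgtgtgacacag
Per3, D-boxes, chr4:151044796-151044890 (-): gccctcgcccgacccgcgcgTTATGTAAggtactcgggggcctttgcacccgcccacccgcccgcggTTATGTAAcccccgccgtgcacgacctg
Cry1, E'-box and E-box, chr10:85185095-85185154 (-): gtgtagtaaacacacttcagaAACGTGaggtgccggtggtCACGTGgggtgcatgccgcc
Nr1d1, E'-box, chr11:98775383-98775427 (-): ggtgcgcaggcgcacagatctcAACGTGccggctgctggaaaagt
The Per1 E-box begins 166 bases before the listed start, in an intron of a longer Per1 transcript of the GENCODE annotation. The Per3 D-boxes begin 205 and 158 bases before the start, within an intron of a Camta1 transcript that spans Per3. A match is a description of the letters only, and no binding was measured.

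Libraries held 9794683 to 18057936 counts in eWAT and 8933307 to 17447524 in liver. Levels are given as CPM, counts relative to the library total after TMM scaling of the libraries, and the members had between 6 counts (Npas2) and 2964 counts (Nr1d1) in a library. A gene was called where edgeR's quasi-likelihood test gave a Benjamini-Hochberg adjusted p under 0.05 over all genes of the tissue, and in bulk tissue fewer cells of a type and less RNA per cell cannot be told apart. The defining markers bore out the tissue labels, with 5 adipocyte markers summing to 24934 to 32788 CPM in eWAT and 5 hepatocyte markers to 51814 to 224983 CPM in liver. The liver library veh HPD replicate 4 was left out by the study as an outlier and is left out of the values here unless stated, which leaves 3 veh HPD livers. The eWAT library cort HPD replicate 4 held 7147 CPM of 7 epididymis and testis markers, against at most 4.93 CPM in the other eWAT libraries.

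**Figure D1:**
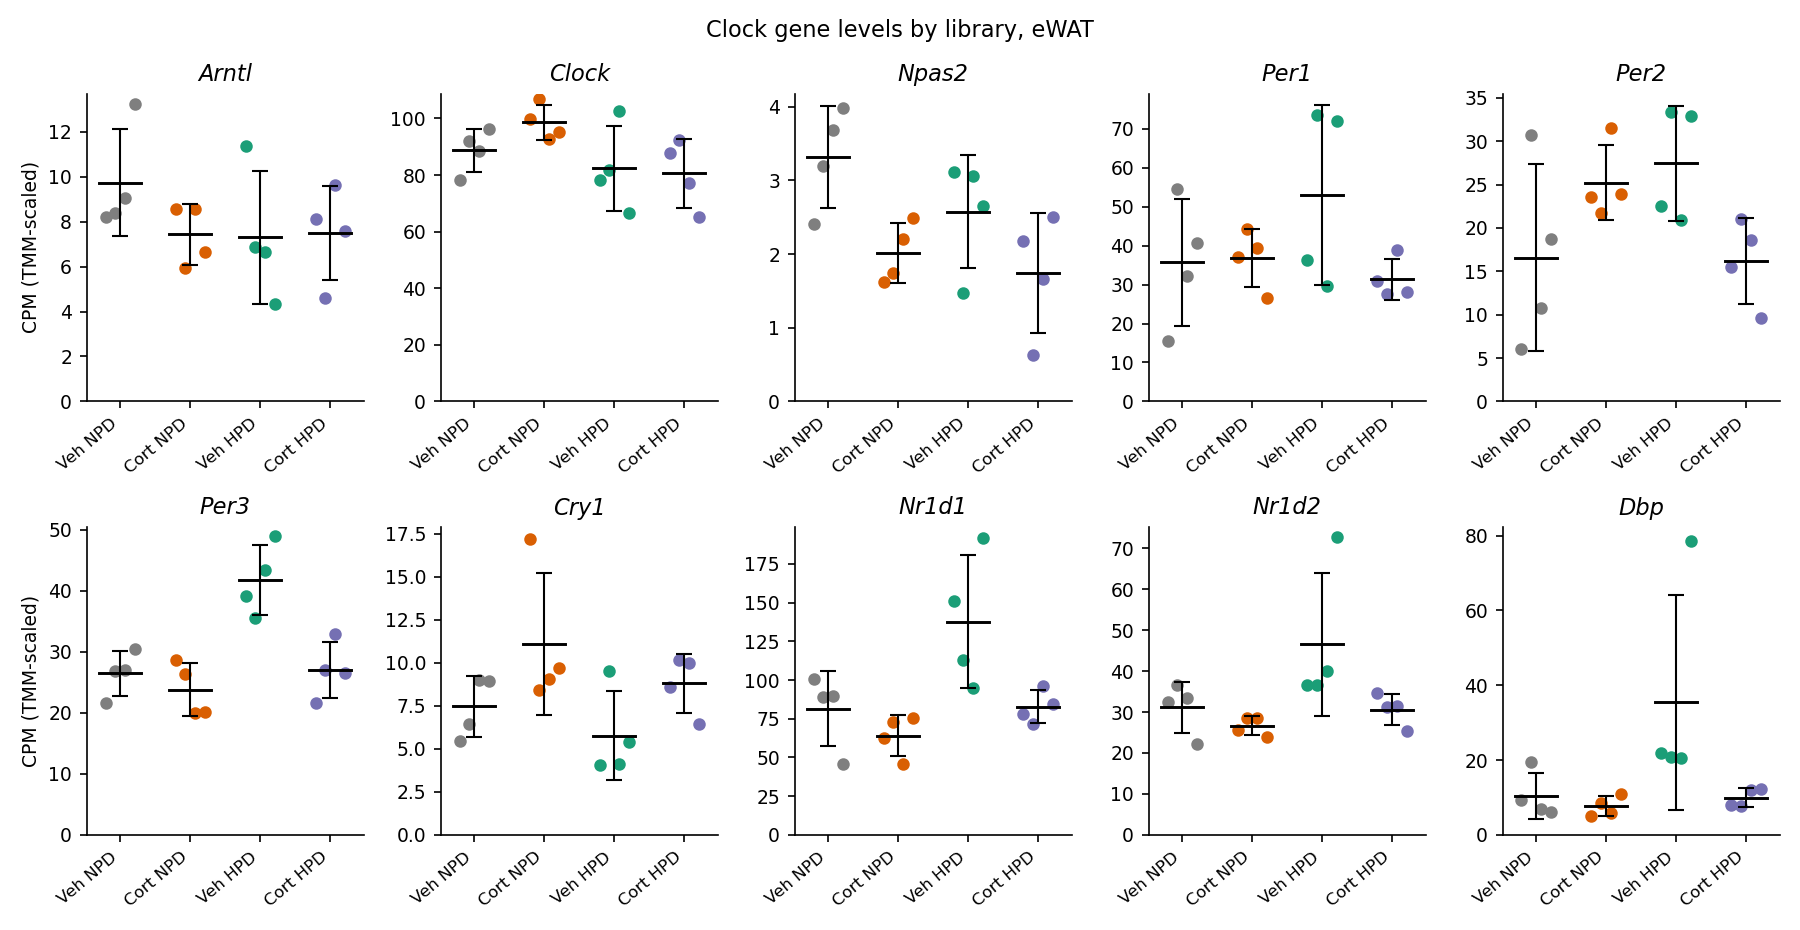
CPM of each clock gene in eWAT, with 1 point per library, the group mean as a horizontal line and the SD as the error bar (n = 4 per group). Veh HPD replicate 4 stands at 78.6 CPM of Dbp and 72.7 CPM of Nr1d2, above all other eWAT libraries for these genes.

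In eWAT, whether cort changed the clock genes was asked on each diet. On the NPD, none of the 10 members was called, against 7.98% of all genes tested (1212 of 15187). At an unadjusted p under 0.05 the count was also 0, against 20.3% of all genes, and DESeq2 called 0. The median log2 fold change of the members was -0.19, against -0.02 over all genes, and single values ran from -0.72 (Npas2) to 0.61 (Per2). On the HPD, 2 members fell, Per3 and Dbp, against 6.09% of all genes called (925 of 15187). At an unadjusted p under 0.05 there were 4 of the 10 members, against 18.9% of all genes. The median log2 fold change of the members was -0.61, against -0.00 over all genes, and 8 of the 10 were negative.

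Dbp (ENSMUSG00000059824, chr7:45705088-45710203, + strand) encodes a D-box binding factor that carries the clock to its output genes. In eWAT of veh HPD mice its levels were 22.0, 20.8, 20.5 and 78.6 CPM in replicates 1 to 4, and in cort HPD mice 7.89, 7.66, 11.95 and 12.2 CPM. The groups did not overlap, and 1 veh library stood far above the other 3. The log2 fold change was -1.83 ± 0.49 (SE), which is 3.55-fold lower with cort (edgeR adjusted p = 0.041, n = 4 per group). Without veh HPD replicate 4 it was -1.08 (adjusted p = 0.04), so the size but not the call rested on that library. The call was lost when any of the 4 cort HPD libraries was left out (adjusted p between 0.081 and 0.12), and with limma voom (0.11), without the filter on low counts (0.084) or with only the HPD groups in the fit (0.098). On the NPD, Dbp lay at 6.05 to 19.4 CPM with veh and 5.14 to 11.0 CPM with cort, and these ranges overlapped (-0.46 ± 0.49, edgeR adjusted p = 0.69). The response on the HPD minus that on the NPD was -1.37 ± 0.69 (edgeR adjusted p = 0.97), so the response of Dbp was not shown to differ between diets.

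Per3 (ENSMUSG00000028957, chr4:151003652-151044665, - strand), a PER family member with a minor part in the core loop, fell with it. Its levels were 39.1, 35.6, 43.4 and 49.0 CPM in veh HPD eWAT and 21.7, 27.1, 32.9 and 26.6 CPM in cort HPD eWAT. Every veh HPD library was above every cort HPD library. The log2 fold change was -0.62 ± 0.17 (1.54-fold lower, edgeR adjusted p = 0.023), and the call was lost without veh HPD replicate 3 or 4 or cort HPD replicate 1, 2 or 4 (adjusted p between 0.052 and 0.091). On the NPD the log2 fold change was -0.15 ± 0.17 (adjusted p = 0.7). The difference between the diets in this response (HPD minus NPD) was -0.47 ± 0.24 (adjusted p = 0.95 in edgeR), so the response was not shown to differ between diets.

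The REV-ERB genes did not pass the test. Nr1d2 (ENSMUSG00000021775, chr14:18204054-18239127, - strand) was at 36.6, 36.7, 40.1 and 72.7 CPM in veh HPD and at 34.5, 31.3, 31.4 and 25.2 CPM in cort HPD eWAT, with no overlap (log2 fold change -0.60 ± 0.19, adjusted p = 0.066). Nr1d1 (ENSMUSG00000020889, chr11:98767932-98775333, - strand) was at 151, 113, 94.8 and 192 CPM against 78.3, 71.7, 96.3 and 84.9 CPM (-0.73 ± 0.24, adjusted p = 0.09), with 1 cort library above the lowest veh library. The value of Nr1d2 moved with single libraries, to -0.30 (adjusted p = 0.32) without veh HPD replicate 4 and to -0.70 (0.048) without veh HPD replicate 2. Nr1d1 passed the threshold without veh HPD replicate 3 (0.04). Among all genes 11.3% had groups without overlap in this comparison, and among the members 3 of 10 did. Red cell transcripts moved with the same groups. The 5 erythroid markers summed to 12654 to 25767 CPM in cort HPD eWAT and 5248 to 9293 CPM in veh HPD eWAT, none of them at 0 in any library, and their part in the result was not tested. The 7 epididymis and testis markers, of which 1 to 4 were at 0 in each cort HPD library, summed to 7147 CPM in replicate 4 and to at most 4.93 CPM in the other 3, and the fold change of Dbp without that library was -1.94.

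The effect of the diet in eWAT was then compared within each treatment. With veh, none of the 10 members was called, against 0.0593% of all genes (9 of 15187). At an unadjusted p under 0.05 there were 4, against 8.03% of all genes. DESeq2 called 3 (Per3, Nr1d1 and Dbp). The shares of all genes given here and elsewhere are those of edgeR, so they are no background for counts by DESeq2. Dbp lay at 9.38, 19.4, 7.04 and 6.05 CPM on the NPD, below every veh HPD library, and its log2 difference of HPD from NPD was 1.76 ± 0.49 (unadjusted p = 0.0028, adjusted p = 0.27). Without veh HPD replicate 4 the same difference was 1.01. Per3 lay at 21.6, 26.8, 27.1 and 30.4 CPM on the NPD, also without overlap (0.66 ± 0.17, unadjusted p = 5.7e-04, adjusted p = 0.14). Groups without overlap made up 4.31% of all genes here and 3 of the 10 members, the other being Nr1d2, at 22.1 to 36.495 CPM on the NPD and at least 36.58 CPM on the HPD. These differences share the veh HPD libraries with the cort comparison on the HPD, so the higher veh HPD levels of Dbp and Per3 enter both.

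With cort, 0 of the 10 members was called between the diets in eWAT, against 0.487% of all genes (74 of 15187), and DESeq2 called 0. At an unadjusted p under 0.05 there was 1, against 9.81% of all genes. That gene was Clock (ENSMUSG00000029238, chr5:76209868-76304792, - strand), the partner of BMAL1, which was at 99.8, 107, 92.7 and 95.2 CPM on the NPD and at 87.9, 92.3, 77.0 and 65.1 CPM on the HPD (-0.29 ± 0.13, adjusted p = 0.46). The groups did not overlap but lay close together. Per2 was the other member without overlap, at 21.8 to 31.5 CPM on the NPD and 9.64 to 21.1 CPM on the HPD, and among all genes 6.68% had none. Cort HPD replicate 4, with 7147 CPM of epididymis and testis markers, was the lowest cort eWAT library for both Clock and Per2. With 1 library left out at a time the Clock value ran from -0.37 to -0.20. A term for diet by cort in eWAT called 0 of the 10 members, against 0.0132% of all genes (2 of 15187). The smallest p was that of Per2 (ENSMUSG00000055866, chr1:91415982-91459324, - strand), a core repressor, whose log2 response to cort was 0.61 ± 0.38 on the NPD and -0.76 ± 0.38 on the HPD (difference -1.37 ± 0.53, unadjusted p = 0.021, adjusted p = 0.89, DESeq2 0 called).

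**Figure D2:**
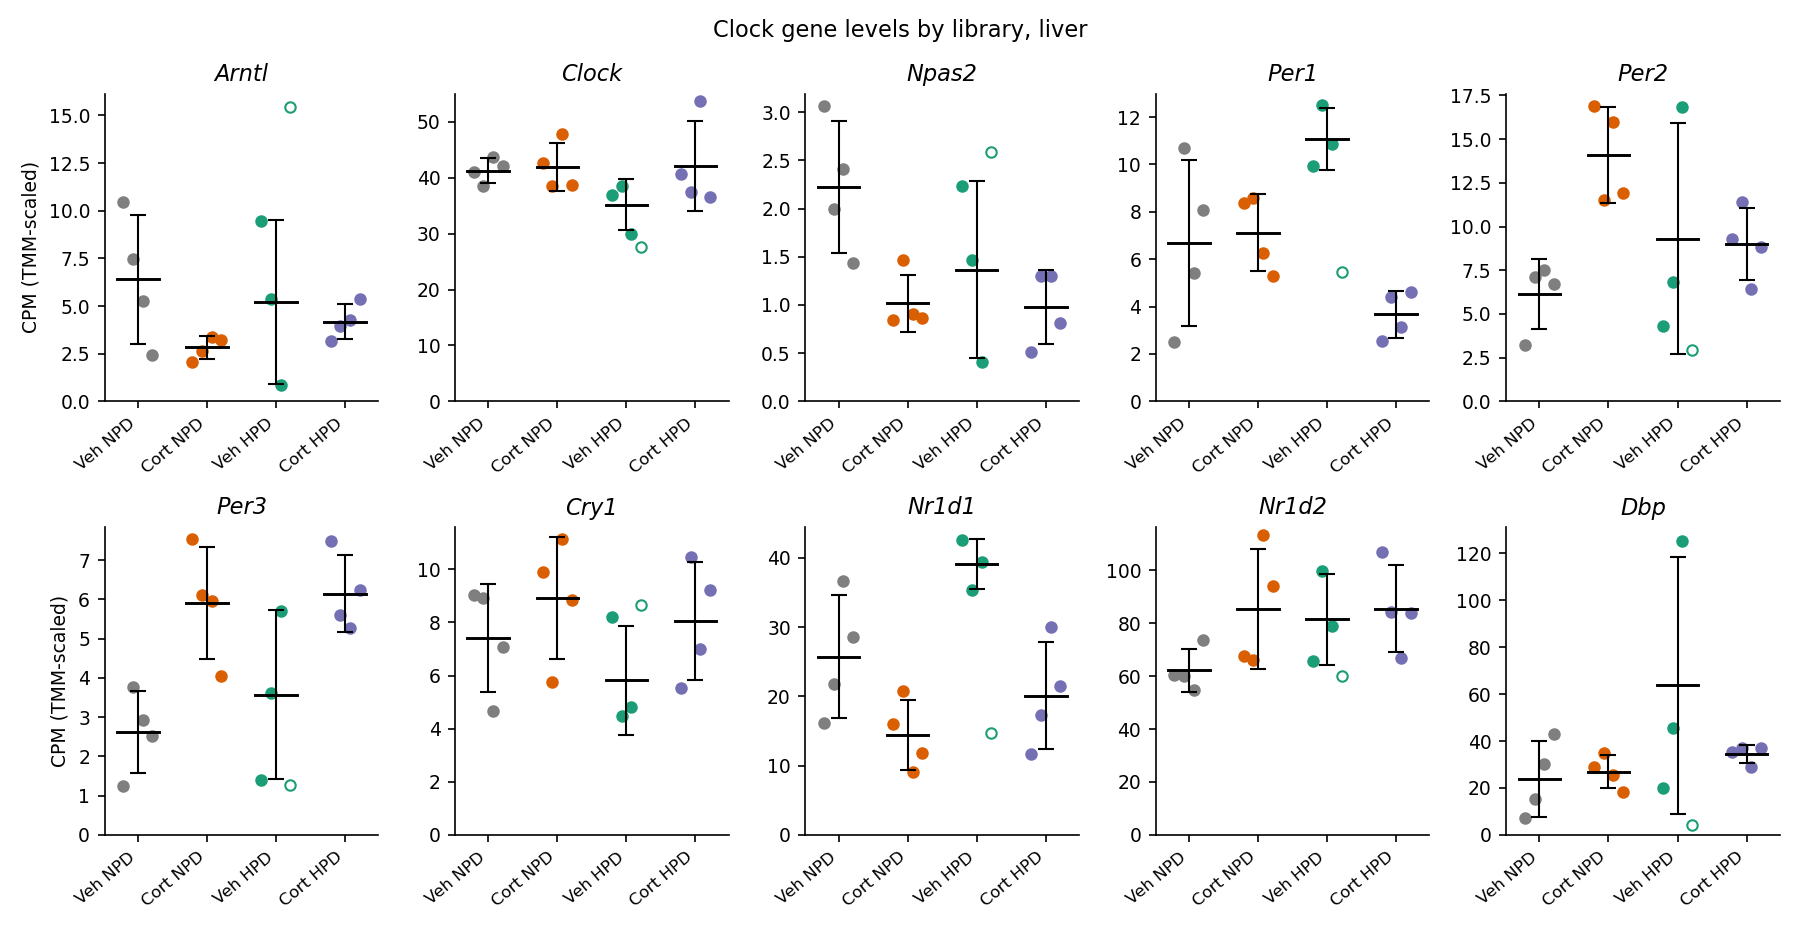
CPM of each clock gene in liver, with 1 point per library, the group mean as a horizontal line and the SD as the error bar (n = 4, or 3 for veh HPD). The open circle is veh HPD replicate 4, which is not part of the mean, and Per1 of cort HPD mice lies below all 3 filled veh HPD points.

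In liver, the same question was asked on each diet, and whether the response differed from that in eWAT was tested further on. On the NPD, 2 members rose with cort, Per2 and Per3, against 12.6% of all genes called (1565 of 12391). On the HPD, 1 member fell, Per1, against 9.89% of all genes called (1226 of 12391). The median log2 fold change of the members was 0.13 on the NPD and -0.19 on the HPD, against -0.01 and -0.00 over all genes. A share of 1 or 2 called in 10 is near these backgrounds. At an unadjusted p under 0.05 there were 6 of the 10 members on the NPD, against 26.7% of all genes. On the HPD there were 3, against 24.3% of all genes.

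Per1 (ENSMUSG00000020893, chr11:69095217-69109960, + strand), a PER gene that glucocorticoids are known to induce directly, was at 9.92, 12.5 and 10.8 CPM in the 3 veh HPD livers (178, 145 and 160 counts). In the 4 cort HPD livers it was at 2.55, 4.42, 3.13 and 4.604 CPM (30 to 75 counts). The groups did not overlap, and the left-out veh HPD library, at 5.48 CPM when scaled with all 16 livers, was also above all cort HPD livers. The log2 fold change was -1.59 ± 0.33, lower with cort (edgeR adjusted p = 0.0042). It passed the test in each of the 15 alternative fits, among them those that left out 1 library, with log2 fold changes from -1.79 to -1.38 and adjusted p-values from 0.00017 to 0.02. With all 16 liver libraries the value was -1.38.

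On the NPD, Per1 did not move in one direction. It was at 2.51, 10.7, 5.43 and 8.07 CPM with veh and 8.37, 8.60, 6.25 and 5.29 CPM with cort (log2 fold change 0.09 ± 0.31, adjusted p = 0.89). The difference of this response between the diets (HPD minus NPD) was -1.68 ± 0.45 (unadjusted p = 0.0014), which did not pass over all genes (adjusted p = 0.16). The interaction called 0 of the 10 members, against 0.113% of all genes (14 of 12391), while DESeq2 called 1 (Per1). At an unadjusted p under 0.05 there were 2 members, Per1 and Per2, against 12.1% of all genes. The lower Per1 of cort HPD livers was thus called against veh HPD livers, while its difference from the NPD response was not called by edgeR.

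Other transcripts moved with the same liver groups. The 5 hepatocyte markers summed to 51814 to 62341 CPM in veh HPD and 121595 to 224983 CPM in cort HPD livers, with none at 0. The 5 erythroid markers summed to 1908 to 3466 against 5338 to 7601 CPM, and the 5 macrophage markers to 112 to 151 against 61.2 to 132 CPM, again with none at 0. The 5 endothelial markers summed to 56.4 to 72.7 CPM in veh HPD and 29.1 to 43.1 CPM in cort HPD livers, with none at 0 and no overlap. The 5 lymphocyte markers were near 0 throughout, at 0.345 to 1.70 against 0 to 0.170 CPM, with 1 to 4 of them at 0 in the veh and 4 or 5 in the cort libraries. On library totals without TMM scaling the median of all genes shifted to -0.24 in this comparison and Per1 to -1.79, and the part of these transcripts in the Per1 result was not tested.

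Per2 was at 3.22, 7.14, 7.50 and 6.73 CPM in veh NPD livers and at 16.9, 11.5, 15.97 and 11.9 CPM in cort NPD livers. All 4 cort livers were above all 4 veh livers, and the log2 fold change was 1.19 ± 0.35 (2.28-fold higher, edgeR adjusted p = 0.033). The call was lost without veh NPD replicate 1, 2 or 4 or cort NPD replicate 1, 3 or 4 (adjusted p between 0.051 and 0.092), without the filter on low counts (0.097) and with all 16 liver libraries (0.099). On the HPD, Per2 was at 4.29, 6.81 and 16.8 CPM with veh and at 9.28, 11.4, 6.41 and 8.84 CPM with cort, which overlapped fully (-0.05 ± 0.37, adjusted p = 0.96). The interaction for Per2 was -1.24 ± 0.50 (unadjusted p = 0.025, adjusted p = 0.34), and it was -0.48 without veh HPD replicate 3, the library at 16.8 CPM.

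Per3 was at 1.26, 3.78, 2.93 and 2.52 CPM in veh NPD livers (16 to 36 counts) and at 7.53, 6.11, 5.95 and 4.06 CPM in cort NPD livers (66 to 98 counts). The groups did not overlap, and the log2 fold change was 1.17 ± 0.35 (2.25-fold higher, edgeR adjusted p = 0.03). It missed the threshold without veh NPD replicate 1, 3 or 4 or cort NPD replicate 1, 2 or 3 (adjusted p between 0.052 and 0.11) and with all 16 libraries (0.083). On the HPD, Per3 was at 1.39, 3.62 and 5.70 CPM with veh and 7.49, 5.59, 5.26 and 6.24 CPM with cort, so that 1 veh library reached into the cort range (0.79 ± 0.37, adjusted p = 0.19). Without veh HPD replicate 1 the value was 0.38 and without veh HPD replicate 3 it was 1.32 (adjusted p = 0.59 and 0.051). Groups without overlap made up 18.5% of all genes in the NPD comparison, where 2 of the 10 members had them, and 21.2% in the HPD comparison, where 2 had them.

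Markers of other cells also differed between the NPD livers in which Per2 and Per3 rose. The 5 macrophage markers summed to 135 to 184 CPM with veh and 53.5 to 130 CPM with cort, and the 5 mesothelial markers to 2.02 to 3.22 and 4.596 to 5.38 CPM, in both cases without overlap. None of the macrophage markers was at 0, and at most 1 mesothelial marker was, in veh libraries. The 5 lymphocyte markers summed to 0.252 to 1.65 CPM with veh and 0 to 0.307 CPM with cort, with 1 or 2 at 0 in the veh and 3 to 5 in the cort libraries. The hepatocyte markers overlapped, at 58643 to 88675 and 81389 to 104481 CPM, and the part of these cells in the Per2 and Per3 results was not tested.

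Of the activating arm of the loop, no gene passed the test with cort in NPD livers. Arntl (ENSMUSG00000055116, chr7:113207465-113314126, + strand) was at 10.4, 7.45, 5.26 and 2.44 CPM with veh and 2.07, 2.67, 3.39 and 3.20 CPM with cort (log2 fold change -1.18 ± 0.53, adjusted p = 0.17). Npas2 (ENSMUSG00000026077, chr1:39193731-39363236, + strand), the CLOCK relative, was at 3.06, 1.99, 2.41 and 1.43 CPM and at 0.845, 1.46, 0.904 and 0.861 CPM (-1.15 ± 0.44, adjusted p = 0.095). In both genes the lowest veh library lay within the cort range. With only the NPD groups in the fit, both were called (adjusted p = 0.039 and 0.045). Clock itself was at 38.5 to 43.7 CPM with veh and 38.6 to 47.8 CPM with cort (0.01 ± 0.15, adjusted p = 0.97).

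In the repressing arm, Nr1d1 was at 16.1, 21.7, 36.6 and 28.5 CPM in veh NPD livers and at 15.98, 20.7, 9.12 and 11.9 CPM in cort NPD livers (-0.85 ± 0.30, adjusted p = 0.073). Leaving out veh NPD replicate 1 or cort NPD replicate 2 brought it past the threshold (adjusted p = 0.03 and 0.033). In HPD livers it was at 42.6, 35.3 and 39.5 CPM with veh and at 11.7, 17.3, 30.0 and 21.5 CPM with cort, with no overlap (-0.96 ± 0.31, adjusted p = 0.06, and 0.019 without cort HPD replicate 3). The left-out veh HPD library held 14.7 CPM when scaled with all 16 livers, inside the cort range, and with it the value was -0.71 (adjusted p = 0.23). Nr1d2 was at 54.6 to 73.8 CPM in veh NPD and 66.3 to 113 CPM in cort NPD livers (0.44 ± 0.18, adjusted p = 0.12), so the REV-ERB genes had opposite signs there. Cry1 (ENSMUSG00000020038, chr10:85131700-85185064, - strand), the partner of the PER proteins, had overlapping groups in all 4 cort comparisons, with log2 fold changes of 0.26 (NPD) and 0.45 (HPD) in liver and 0.58 and 0.61 in eWAT.

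Between the diets, none of the 10 members was called in veh livers, against 0.169% of all genes (21 of 12391), and DESeq2 called 0. At an unadjusted p under 0.05 there were 2 (Per1 and Dbp), against 9.4% of all genes. Dbp was at 6.98, 15.1, 30.2 and 43.1 CPM on the NPD and at 20.1, 45.8 and 125 CPM on the HPD, which overlapped (1.41 ± 0.61, adjusted p = 0.5). Without veh HPD replicate 3, the library at 125 CPM, the difference was 0.45. In cort livers none was called either, against 5.88% of all genes (729 of 12391). At an unadjusted p under 0.05 there was 1, against 21.3% of all genes. That gene was Per1, whose 4 NPD livers were all above the 4 HPD livers (-0.95 ± 0.32, adjusted p = 0.082), and it was called by DESeq2 (1 member) and with only the cort groups in the fit. Groups without overlap made up 9.46% of all genes in veh livers, where 0 of the 10 members had them, and 13.3% in cort livers, where 2 (Per1 and Per2) had them.

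**Figure D3:**
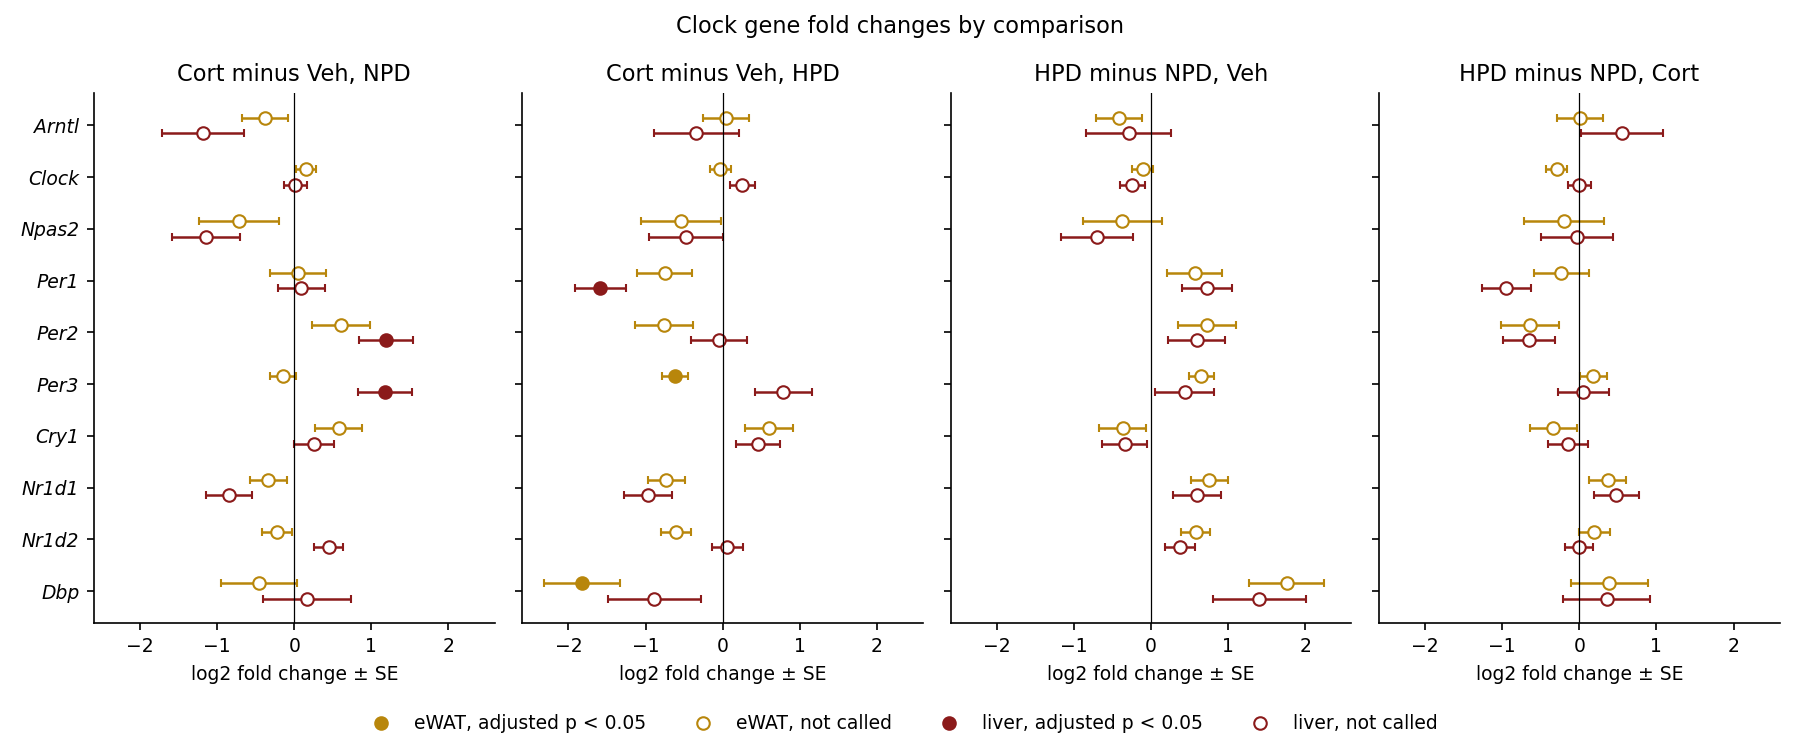
Log2 fold changes of the 10 clock genes with their SE for cort against veh on each diet and for HPD against NPD under each treatment, in eWAT and liver. Filled points passed an adjusted p of 0.05 in edgeR's quasi-likelihood test. Per3 has an eWAT value of -0.62 and a liver value of 0.79 in the HPD panel.

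Whether liver and eWAT differed in their response was tested in a fit of both tissues. That fit had no term for the mouse, so its p-values take eWAT and liver libraries as independent. Of the 10 members, 1 differed on the NPD, against 3.85% of all genes (635 of 16482), and 1 on the HPD, against 3.12% of all genes (514 of 16482). Both times it was Per3. Its log2 response was higher in liver than in eWAT by 1.37 ± 0.38 on the NPD (adjusted p = 0.035) and by 1.38 ± 0.39 on the HPD (adjusted p = 0.044). Leaving out any of 11 of the 16 NPD libraries ended the call there (adjusted p between 0.053 and 0.099), namely replicates 2, 3 and 4 of veh and of cort eWAT, 1 and 4 of veh liver and 1, 2 and 3 of cort liver. On the HPD, 11 of 15 did so (adjusted p between 0.05 and 0.17), namely replicates 1, 3 and 4 of veh eWAT, 1, 2 and 4 of cort eWAT, 1 and 2 of veh liver and 1, 2 and 4 of cort liver. Nr1d2 came next, with 0.71 ± 0.29 on the NPD and 0.63 ± 0.30 on the HPD (adjusted p = 0.19 and 0.29), the second at 0.38 without veh eWAT replicate 4. Of the clock outputs listed further on, Por differed in its NPD response, by 1.28 ± 0.33 (adjusted p = 0.019), a call lost without veh eWAT replicate 1, cort eWAT replicate 4 or cort liver replicate 3 (adjusted p between 0.052 and 0.062). Elovl3 was tested and called in the same fit, but its values are not given, since veh NPD eWAT held at most 2 counts of it.

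The level in veh NPD mice differed between the tissues for 5 of the 10 members, below the 62.7% of all genes (10326 of 16482) that differed. Nr1d2 was higher in liver by a log2 value of 2.05 ± 0.21 and Per3 and Per1 were lower by 2.31 ± 0.29 and 1.39 ± 0.36, with adjusted p-values of 1.8e-10, 1.1e-08 and 0.0013. These 3 kept their direction and call on library totals without TMM scaling, which moved the median of all genes from -0.26 to -1.28. Dbp (2.24 ± 0.57) and Cry1 (1.04 ± 0.30) were called higher in liver with TMM scaling, but on library totals they were at 1.18 and 0.02 and were not called. Their call, though not their sign, therefore depended on the scaling. Of 9 further regulators tested, 8 differed, among them Hlf (3.03 ± 0.24), Nfil3 (2.14 ± 0.34) and Rora (1.14 ± 0.16), all higher in liver, although Rora was at 0.11 and not called on library totals. Of 9 genes that modify clock proteins, 5 differed, with Csnk1e (-3.07 ± 0.22), Gsk3b (-1.64 ± 0.18) and Huwe1 (-1.01 ± 0.15) among those lower in liver. Of the listed outputs Por was lower in liver (-1.25 ± 0.23), and of the glucocorticoid targets Sgk1 (-1.18 ± 0.24) and Zbtb16 (-1.88 ± 0.46) were lower and Klf9 higher (0.90 ± 0.23), the last with its direction turned on library totals (-0.15).

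**Figure D4:**
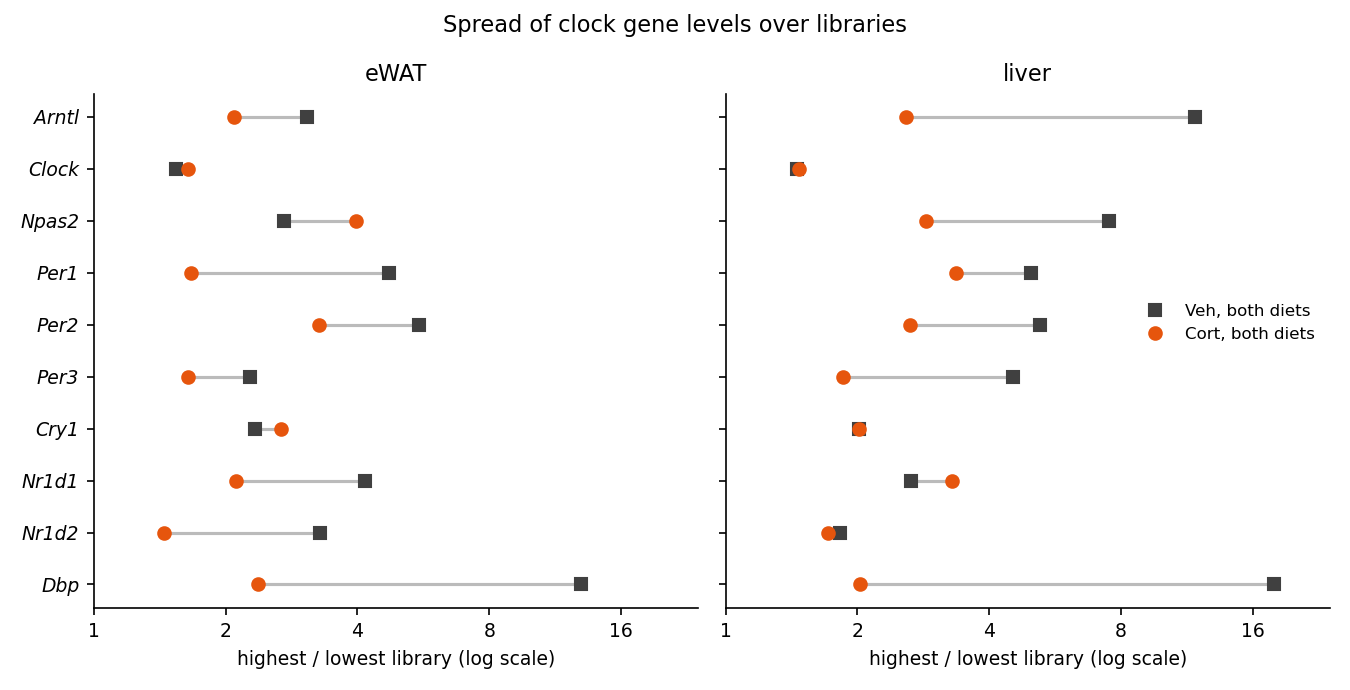
Highest over lowest CPM among the libraries of a treatment, both diets together, for each clock gene (log axis). Squares are veh (8 eWAT and 7 liver libraries) and circles cort (8 and 8), and the gap is widest for Dbp and, in liver, Arntl.

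With both diets pooled, the range of most members was wider among veh than among cort libraries. The ratio of the highest to the lowest library was wider with veh for 7 of the 10 members in eWAT and for 7 in liver. No share over all genes is given beside these counts, and a difference between the diets can widen a pooled ratio. For Per3 in eWAT the pooled ratio was 2.27 with veh and 1.64 with cort. Within groups it was 1.41 (NPD) and 1.38 (HPD) with veh and 1.43 and 1.52 with cort. Dbp in liver kept the wider veh range on each diet, at 6.17 against 1.92 (NPD) and 6.22 against 1.28 (HPD). In liver, Dbp ranged from 6.98 to 125 CPM with veh (17.9-fold, 7 libraries) and from 18.3 to 37.0 CPM with cort (2.03-fold, 8 libraries). Arntl ranged from 0.881 to 10.4 CPM (11.8-fold) and from 2.07 to 5.35 CPM (2.58-fold) in the same livers, and Npas2 7.52-fold and 2.86-fold. In eWAT, Dbp ranged 13.0-fold with veh and 2.37-fold with cort. Clock and Nr1d2 had the narrowest ranges in liver, 1.46-fold and 1.83-fold with veh and 1.47-fold and 1.71-fold with cort. The exceptions to a wider veh range were Clock, Npas2 and Cry1 in eWAT and Clock, Cry1 and Nr1d1 in liver. These ratios describe the libraries at hand and were not tested, and since veh HPD replicate 4 of eWAT and replicate 3 of liver gave the highest Dbp, the widest ratios rest on single libraries.

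**Figure D5:**
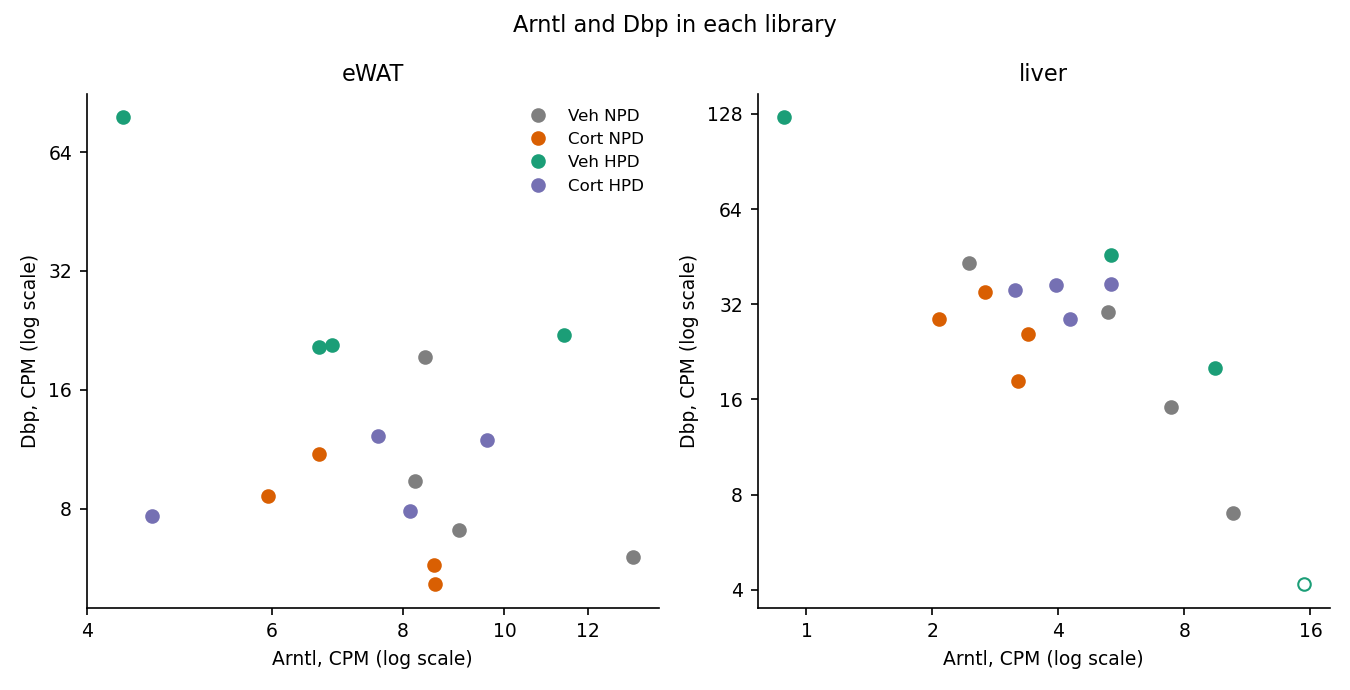
CPM of Dbp against Arntl in each library on log axes, coloured by group, for eWAT and liver. In liver the library with the least Arntl (0.881 CPM) had the most Dbp (125 CPM), and the left-out library, drawn as an open circle, had the most Arntl (15.4 CPM) and the least Dbp (4.16 CPM).

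In veh livers, Arntl and Dbp lay on opposite sides. In veh NPD livers Dbp was 6.98, 15.1, 30.2 and 43.1 CPM where Arntl was 10.4, 7.45, 5.26 and 2.44 CPM, and in veh HPD livers Dbp was 20.1, 45.8 and 125 CPM where Arntl was 9.48, 5.34 and 0.881 CPM. After the group means were removed from log2 CPM, the correlation over the 15 livers was r = -0.89 (Spearman rho = -0.83), with permutation p-values within groups of 0.004 and 0.0077. Adjusted over the 45 pairs of members in liver these were 0.1 and 0.32, so the relation did not pass. Without the 2 livers farthest from the median of Arntl, r was -0.81. Other pairs with an unadjusted p under 0.05 in liver included Per2 and Per3 (r = 0.86, rho = 0.71), Arntl and Npas2 (r = 0.82, rho = 0.66) and Nr1d1 and Nr1d2 (r = -0.72, rho = -0.69), with p = 0.0049, 0.0092 and 0.0074 for r and 0.017, 0.029 and 0.025 for rho in permutation tests. Each had an adjusted p of 0.1 for r and 0.32 for rho, and without the 2 livers farthest from the median of the first gene r was 0.74, 0.56 and -0.61. In eWAT 0 of 45 pairs passed as well, with the smallest p for Per1 and Per2 (r = 0.78, rho = 0.64, permutation p = 0.005 and 0.025, adjusted p = 0.22 and 0.49), where r was 0.56 without the 2 farthest libraries. The labels give no batch, so no value within batches could be had.

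Outside the 10 members, the genes whose log2 CPM followed Dbp most closely in the 15 livers were Oxsr1 (r = 0.87), Bhlhe41 (0.86), a clock repressor, Mmd2 (0.81), Adi1 (0.79) and Triobp (0.78). With group means removed these stood at 0.76 to 0.89, those nearest Dbp in eWAT at 0.58 to 0.65. Those nearest Arntl in liver were Nop14 (0.87), Chka (0.87), Ubfd1 (0.86), Asap2 (0.85) and Leo1 (0.85). In the 16 eWAT libraries, Tra2b (0.84), Pard6g (0.82), Utp11 (0.80), Nfkbil1 (0.80) and Nob1 (0.80) were nearest Dbp, and Mlh3 (0.82), Gm44997 (0.81), Hells (0.80), Plscr4 (0.78) and B430203G13Rik (0.77) nearest Arntl. The 5 genes nearest Dbp in eWAT were other genes than those in liver, and the same held for Arntl. Lists of 5 out of 15177 genes in eWAT and 12381 in liver can easily share none, so this shows no difference between the tissues. The correlations given are the highest among all other genes tested in a tissue and carry no test.

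Other genes of the pathway were taken from 4 lists. Of 10 further regulators of the loop, 8 were tested in eWAT, where 0 was called with cort on either diet. At an unadjusted p under 0.05 in edgeR there were 2 on the NPD, against 20.3% of all genes, and 1 on the HPD, against 18.9%. In liver 9 were tested, and 3 were called higher with cort on the NPD, against 12.6% of all genes called. On the HPD 1 was called higher, against 9.89% of all genes called. Among the 3 in NPD livers were Tef (log2 fold change 1.21 ± 0.24, adjusted p = 0.0022) and Hlf (0.60 ± 0.19, adjusted p = 0.04), which bind the D-box as Dbp does. The Hlf call was lost without veh NPD replicate 1 or 2 or cort NPD replicate 1, 2 or 3 (adjusted p between 0.077 and 0.16) and on library totals (0.063), and with all 16 liver libraries neither passed (0.052 for Tef, 0.43 for Hlf). Dbp itself was at 0.17 ± 0.57 in the same livers. Of 9 genes that modify clock proteins, Usp2, a deubiquitinating enzyme, rose with cort in NPD eWAT (1.28 ± 0.34, adjusted p = 0.026), and Huwe1, a ubiquitin ligase, was lower on the HPD in cort livers (-0.62 ± 0.17, adjusted p = 0.029). These were the 2 calls of that list over the cort, diet and interaction comparisons of both tissues. Usp2 was 1 of 8 tested, against 7.98% of all genes called in that comparison. Huwe1 was 1 of 9 tested, against 5.88% of all genes called. Neither call held with each library left out in turn. The Usp2 call was lost without replicate 1, 2 or 3 of the veh or of the cort group and without the filter (adjusted p between 0.055 and 0.09). The Huwe1 call was lost without cort NPD replicate 3 or 4 or cort HPD replicate 1 or 2 and with all 16 liver libraries (between 0.051 and 0.085).

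Among 6 clock output genes, of which 4 were tested in eWAT and 5 in liver, cort raised 2 in NPD eWAT, where 7.98% of all genes were called. These were Nampt, the enzyme of NAD salvage (0.78 ± 0.21), and Alas1, the first enzyme of heme synthesis (1.09 ± 0.21). In liver, Nampt rose with either diet (0.76 ± 0.21 on the NPD, 0.95 ± 0.23 on the HPD), Por, the electron donor of cytochrome P450 enzymes, rose on the NPD (1.35 ± 0.31), and Elovl3, a fatty acid elongase, fell with either diet (-2.94 ± 0.54 on the NPD, -2.64 ± 0.56 on the HPD). All genes were called at 12.6% on the NPD and 9.89% on the HPD in liver. The adjusted p-values of these calls ran from 0.0025 to 0.026. Nampt lost its call in NPD eWAT without veh replicate 1, 3 or 4, cort replicate 1, 2 or 3 or the filter (adjusted p between 0.057 and 0.089), and in NPD liver without veh replicate 1, 2 or 3 or cort replicate 2 or 3 (between 0.053 and 0.081). In HPD liver it did so without veh replicate 1 or 2 or with only the groups compared (between 0.053 and 0.071), and its value was 0.62 without cort replicate 1. Elovl3 in liver was not called with all 16 libraries (0.11 and 0.2). In HPD eWAT 0 of the 4 was called, against 6.09% of all genes, and 0 had an unadjusted p under 0.05, against 18.9%.

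A list of 6 glucocorticoid targets that do not belong to the clock was taken to check the treatment labels. Fkbp5 rose with cort on the NPD in eWAT (1.74 ± 0.39) and in liver (2.23 ± 0.48), where 7.98% and 12.6% of all genes were called. On the HPD Zbtb16 and Sgk1 fell in eWAT (-1.24 ± 0.33 and -1.14 ± 0.26) and Zbtb16 and Klf9 fell in liver (-2.80 ± 0.66 and -1.29 ± 0.28). The shares of all genes called there were 6.09% and 9.89%. With cort on the HPD, 0 of the 6 was called higher in either tissue, so the list did not bear out the labels on that diet. In cort livers Zbtb16 was also lower with the HPD (-2.44 ± 0.63), where 5.88% of all genes were called. The adjusted p-values of these calls ran from 0.007 to 0.043. None of the 3 Zbtb16 calls held with each library left out in turn. In HPD eWAT the call was lost without veh replicate 2, 3 or 4 or cort replicate 1, 3 or 4 (adjusted p between 0.051 and 0.12), without the filter (0.078) and with only the groups compared (0.1). In HPD liver it was lost without veh replicate 2 or cort replicate 2 (0.066 and 0.053). Between the diets in cort livers it was lost without NPD replicate 1, 2 or 3 or HPD replicate 1, 2 or 4 (between 0.052 and 0.096), with limma voom (0.084), without the filter (0.081) and with only the groups compared (0.07). Fkbp5 in eWAT missed the threshold without veh NPD replicate 3 (0.055). No leave-one-out fit ended the calls of Sgk1, Klf9 or liver Fkbp5.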

How the data were processed

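RNA was sequenced by the study from the 3′ ends of transcripts (Quant-Seq). The file the authors deposited holds raw counts for each Ensembl gene and library, and their processing notes name GRCm38, R 4.0.3 and limma. The aligner and the counting program are not given in the sources used here. A symbol was found for 47224 of 47643 gene IDs, and coordinates are those of GENCODE on GRCm38. No column was left unused.

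The tests ran in R 4.3.3 and edgeR 4.0.16. The filter was filterByExpr with a minimum count of 10 and a minimum total of 15, TMM factors scaled the libraries (0.930 to 1.06 in eWAT, 0.751 to 1.11 in liver), and each tissue was fitted with 1 mean per group and robust dispersions, liver without veh HPD replicate 4. Contrasts were given to edgeR's quasi-likelihood test, with p-values adjusted over all genes tested, and the tissues were fitted together for their difference. The script was tested on simulated data. Alternatives were the RLE factors, library totals, DESeq2 1.42.0, limma 3.58.1 voom, no filter, only the groups compared, all 16 liver libraries, the replicate number as a block, and each library left out in turn. Correlations used log2 CPM with a prior count of 2, group means removed and 100000 permutations within groups, and these pairs, the spread ratios and the promoter search were chosen after levels had been seen. All 10 members are named, and of the other lists up to 4 called genes with the smallest p per comparison. Results of 2 listed genes are not reported here. The members and the lists were chosen with earlier results of these data known. Replicates are mice by the study's account, and whether eWAT and liver libraries of a number came from the same mouse is not given in the labels. No 2 libraries of a group held identical values or agreed within counting noise.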

Additional observations from a re-analysis of the deposited data

Results flagged for a closer look

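Of 70 groups of 4 libraries examined for a single value far from the rest, 5 held one, and chance alone would give about 3.5 (1 in 20 groups). In eWAT these were Arntl in veh NPD replicate 4 (13.3 CPM), Cry1 in cort NPD replicate 1 (17.2 CPM), and Dbp and Nr1d2 in veh HPD replicate 4 (78.6 and 72.7 CPM). In liver it was Npas2 in cort NPD replicate 2 (1.46 CPM), from 17 counts. The response of Per3 to cort differed between liver and eWAT in the fit of both tissues, by a log2 value of 1.37 on the NPD and 1.38 on the HPD.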

How the results depend on the processing

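The number of members called moved by more than 1.5 times under some settings, and the cause was not tested except that fewer libraries enter when one is left out. For cort in HPD eWAT limma voom called 1, and for the diet in veh eWAT DESeq2 called 3. For cort in NPD liver 1 was called without the filter, 0 with all 16 libraries and 4 with only the groups compared. For cort in HPD liver 2 were called with library totals, DESeq2, limma voom or only the groups compared, Nr1d1 joining Per1. For the diet in cort livers library totals, DESeq2 and only the groups compared called 1, and for the liver interaction DESeq2 called 1. For the tissue difference in the cort response, limma voom and all 16 liver libraries called 0 on the NPD, and library totals and only the groups compared called 0 on the HPD. With 1 library left out at a time the counts ran from 0 to 1 for cort in NPD eWAT (1 without veh NPD replicate 2, Per2), from 0 to 3 in HPD eWAT (0 without cort replicate 1, 2 or 4), from 0 to 2 in NPD liver, from 1 to 2 in HPD liver, from 0 to 1 for each tissue difference, and from 5 to 6 for the level between tissues. They stayed at 0 for the diet comparisons and interactions of both tissues. Among single genes 1 changed direction, Klf9 in its level between tissues, at -0.15 on library totals.

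Within a tissue, same-numbered libraries of different groups showed little likeness. Their deviations from group means correlated at -0.12 to 0.25 in eWAT and -0.13 to 0.16 in liver, with 1 of 24 and 3 of 21 pairs over 0.1. Libraries of a number were not compared between eWAT and liver, so pairing across the tissues was not examined. With the replicate block, 2 members were called for cort in HPD eWAT and 2 in NPD liver, 1 in HPD liver, 0 in NPD eWAT and 5 for the level between tissues, the same counts as without it. Among the other listed genes the block ended the calls of Zbtb16 for cort in HPD eWAT (adjusted p = 0.093) and HPD liver (0.063) and for the diet in cort livers (0.1), and of Elovl3 for cort in HPD liver (0.051).

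Groups held 3 or 4 libraries, and Npas2 and liver Per3 had low counts. For cort in NPD liver the SE of these 2 genes was 0.44 and 0.35. Arntl, with 27 to 133 counts in the same livers, had an SE of 0.53, and what set the SE was not tested.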
